A study of Mus musculus with 12 samples.

Results

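Collagen genes were compared in the skin of mice with atopic dermatitis-like lesions (AD) and of mice that also carried diet-induced obesity (AD+OB). The genes were every entry of the count tables whose symbol is Col, a number, the letter a and a number, with the hemidesmosome collagen gene Col17a1 left out. The rule gave 43 genes of 23282 entries, and 30 of them had enough reads to be tested. Of these 30 genes, 2 (6.67%) rose in AD+OB skin and none fell past the threshold, against 9.2% of all genes tested in either direction and 4.43% higher. They were Col4a2, a chain of the basement membrane network, and Col18a1, the source of endostatin.

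Collagens are proteins of the extracellular matrix built from chains wound into a triple helix. Fibrillar collagens give the dermis its tensile strength, with type I as the main fibril and type III and type V as its partners. Type IV collagen forms the sheet of basement membranes under the epidermis and around vessels, fat cells, muscle and nerve. Type VII anchors the epidermal basement membrane to the dermis, and collagens with interrupted triple helices (FACIT) decorate fibril surfaces. Type VI forms beaded filaments, and multiplexins such as type XVIII sit at the border of basement membranes.

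All animals were wild-type male C57BL/6J mice that arrived at 5 weeks of age, and all were fasted for 12 h before tissue collection. Both groups had 0.5% 2,4-dinitrochlorobenzene (DNCB), a contact sensitizer, painted on the back 3 times a week for 6 weeks. AD mice (n = 5 libraries) ate normal chow, and AD+OB mice (n = 7 libraries) ate a diet with 60 kcal% fat, begun 4 weeks before the first DNCB dose and kept for 10 weeks in all. Thus both groups carried the DNCB lesion and differed in diet, and skin without DNCB was not analysed here. The labels call the tissue skin and do not name the layer sampled or say that each library came from a separate mouse, so the p-values measure the spread between these libraries. In bulk skin, fewer cells of a type and less RNA per cell cannot be told apart.

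Each library held between 9746937 and 13462434 counts, and a count of 0 allows up to 3 reads, or 0.223 to 0.308 CPM (counts scaled to a library total of 1000000), counting error only. AD libraries had reads on 13100 to 15063 entries and AD+OB libraries on 15522 to 16677, without overlap. Over the whole series 1303 of 14163 tested genes changed, 627 of them (48.1% of the calls) upward. This share was 59.1% with library totals as the only scaling and 28.1% with an offset for transcript GC content. Krt5, Krt14 and the other keratinocyte genes listed were present at a summed 5796 to 11811 CPM. Of 10 cartilage genes listed that are not collagens, Matn1, Matn3, Chad and Lect1 had 0 reads in all libraries. The 10 genes summed to 272 to 445 CPM in AD and 525 to 1339 CPM in AD+OB skin, and only Sox9 and Matn4 could be tested.

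The 43 genes together took 0.991, 0.549, 0.334, 0.437 and 0.464% of the counts in AD libraries 1 to 5. In AD+OB skin the share ran from 0.335% over a median of 0.490% to 1.09%. The group means were 0.555% ± 0.255 (SD, n = 5) and 0.595% ± 0.282 (SD, n = 7), so the groups overlapped widely. AD library 1 and AD+OB libraries 3 and 7 stood above the others. The same libraries were the highest for 12 dermal fibroblast markers that are not collagens, at a summed 2121, 2566 and 2339 CPM against 1008 to 1306 CPM elsewhere. AD library 1 had the highest AD value for 17 of the 30 tested collagens. It was also the highest AD library in the summed markers of keratinocytes, adipocytes (839 against 174 to 477 CPM), endothelium, Schwann cells and macrophages (209 against 43.2 to 75.4 CPM). Over all genes it stood apart from the other AD libraries, with a chi-square per gene of 88.2 to 99.5 in its pairs against at most 59.5 in the pairs among the others. Between the groups 9 of the 12 markers were on the higher side, at a median log2 fold change of 0.29 close to the 0.31 of the tested collagens, 1 was at an unadjusted p under 0.05 and 0 were called in edgeR, and the part of these libraries' fibroblast content in any collagen result was not tested.

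**Figure D1:**
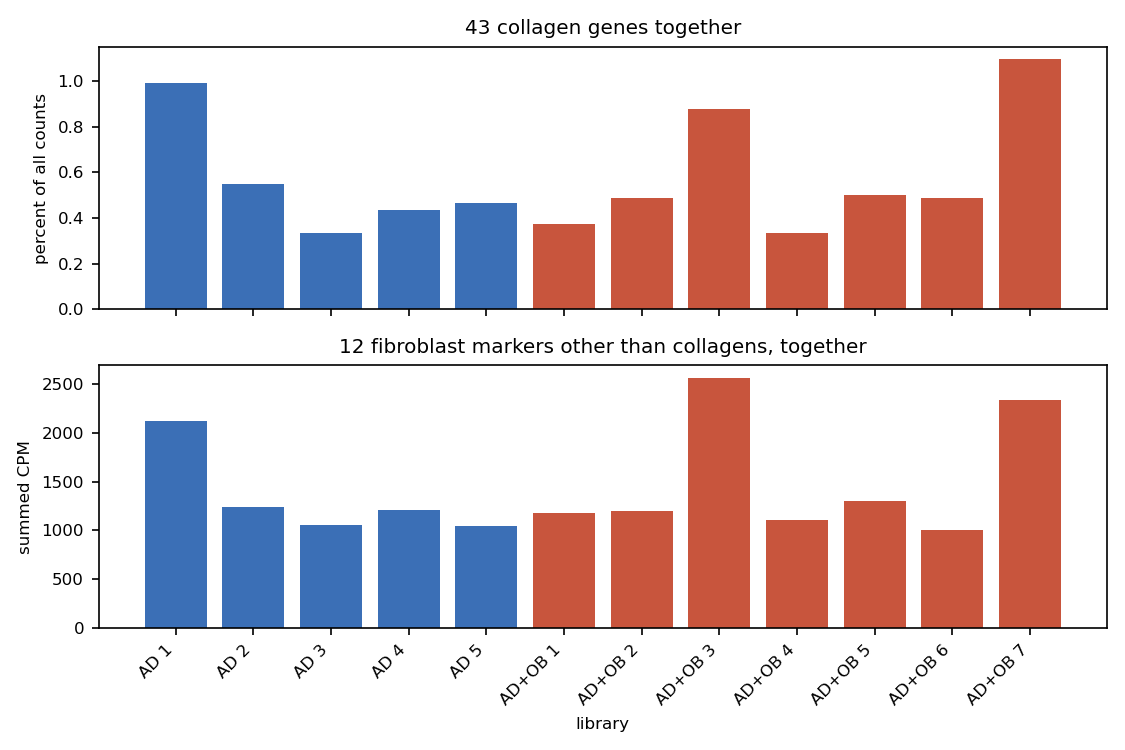
Upper bars give the percent of each library's counts on the 43 collagen genes and lower bars the summed CPM of 12 fibroblast markers that are not collagens, for 5 AD (blue) and 7 AD+OB (red) libraries. AD 1, AD+OB 3 and AD+OB 7 are highest in both, at 0.991, 0.879 and 1.09% of counts.

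Across the 30 tested collagens, 26 had higher fitted levels in AD+OB skin and 4 lower, with a median log2 fold change of 0.31 against 0.02 over all genes tested. Among all genes 51.7% were on the higher side. Without AD library 1 the collagen median was 0.66, with 28 of 31 higher, against 0.04 over all genes. Without AD+OB library 7 it was 0.26 against 0.01. With the replicate numbers as a block it was 0.65, with quality weights 0.61 and in limma-trend 0.51. The medians over all genes were then 0.14, 0.12 and 0.15. Under library totals 27 of the 30 were higher, with a median of 0.38 against 0.07 over all genes. Under the GC offset 17 were higher, with a median of 0.22 against -0.09 over all genes. Past an adjusted p of 0.05, 2 collagens (6.67%) were called, against 9.2% of all genes in either direction, 4.43% in the higher and 4.77% in the lower direction. At an unadjusted p under 0.05 were 6, all higher, against 25.1% of all genes (12.3% higher, 12.8% lower). These were Col4a2, Col18a1, Col16a1, Col14a1, Col5a1 and Col12a1. No tested collagen had groups that did not overlap in CPM, against 5.45% of all genes (2.89% higher, 2.56% lower). Members share the same libraries, so their directions are not separate observations.

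**Figure D2:**
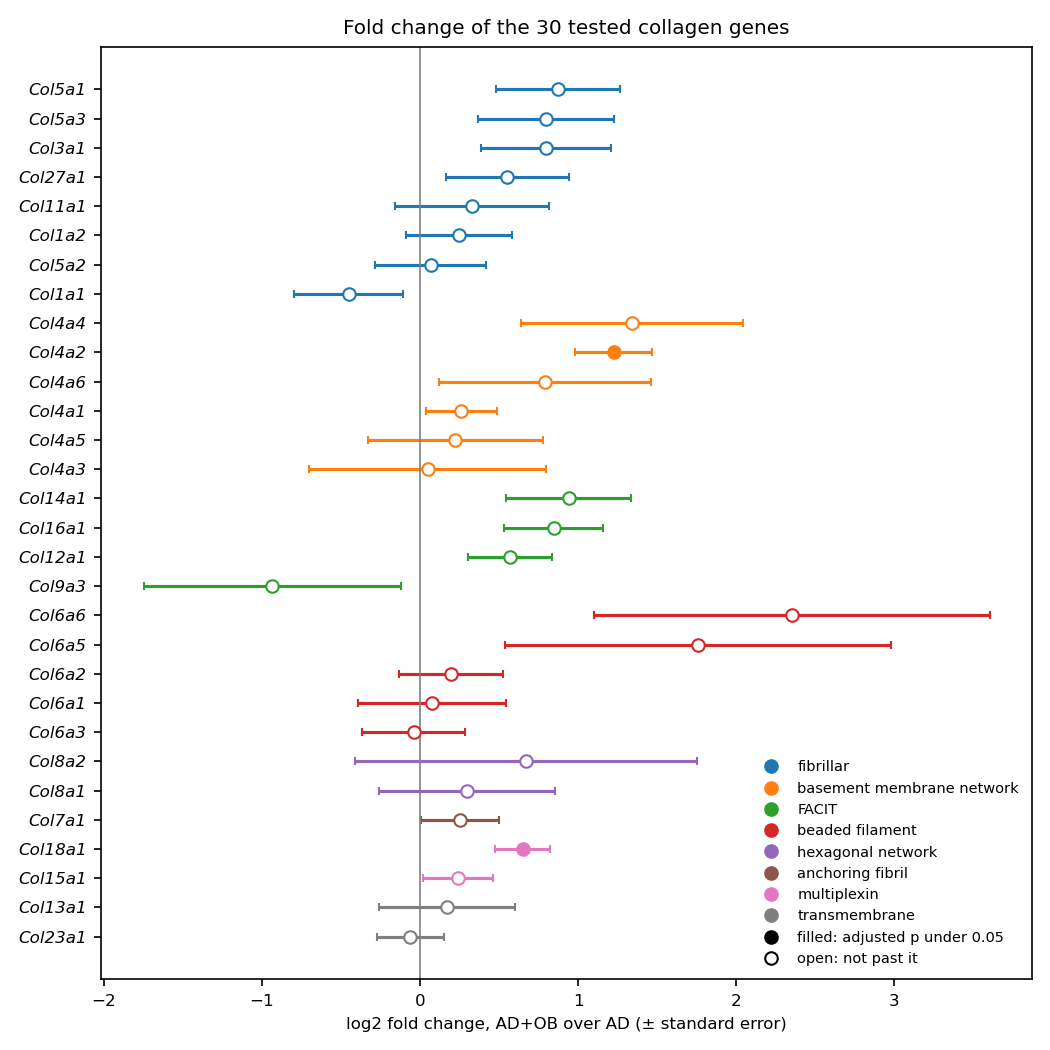
Points are log2 fold changes (AD+OB over AD) of the 30 tested collagen genes with their standard errors, coloured by structural class, filled where the adjusted p was under 0.05. Col4a2 (1.22) and Col18a1 (0.65) are filled, and only Col1a1, Col6a3, Col23a1 and Col9a3 lie left of 0.

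The number of collagens called moved most with AD library 1 left out. Without AD library 1, when 1447 of 14410 genes were called and 775 of these were higher, 7 of 31 tested collagens were called, all higher, namely Col3a1 (log2 fold change 1.44, adjusted p 0.0174), Col5a1 (1.54, 0.00993), Col5a3 (1.36, 0.0360), Col14a1 (1.36, 0.0281), Col16a1 (1.32, 0.00815), Col4a2 and Col18a1. With AD library 2 or 3, or AD+OB library 1, 2, 3 or 7 left out, Col4a2 was the only call, and without AD library 5 Col6a6 passed beside Col4a2 and Col18a1, a gene that then had 0 reads in every AD library. These values are edgeR quasi-likelihood tests with Benjamini–Hochberg adjustment over all genes.

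Type I collagen, the bulk of dermal fibrils, was the most abundant by CPM of 3′ reads, which do not grow with transcript length, and did not change past the threshold. Col1a1, the α1 chain of type I, stood at 4688, 3082, 1524, 2229 and 2670 CPM in AD libraries 1 to 5. In AD+OB skin it ran from 640 over 1983 to 3883 CPM. The groups overlapped, with 2 AD+OB libraries below all AD libraries, and the log2 fold change was -0.45 ± 0.35 (SE, adjusted p 0.460). Col1a2, the α2 chain, stood at 2641, 1145, 758, 738 and 818 CPM in AD skin. It ran from 798 over 1207 to 2815 CPM in AD+OB skin. The α2 chain thus overlapped too, and its log2 fold change of 0.25 ± 0.33 (SE, adjusted p 0.701) had the opposite sign to that of the α1 chain and became -0.02 under the GC offset. With single libraries left out the log2 fold change ran from 0.0031 to 0.75 for Col1a2 and from -0.68 to -0.19 for Col1a1.

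Col3a1, the type III chain of fine fibrils, stood at 1319 CPM in AD library 1 and at 357, 311, 337 and 391 CPM in AD libraries 2 to 5. In AD+OB skin it ran from 475 over 668 to 2065 CPM. All 7 AD+OB libraries were above 4 of the 5 AD libraries, but AD library 1 was above all but 2 of them. The log2 fold change was 0.80 ± 0.41 (SE, adjusted p 0.240), and without AD library 1 it was 1.44 (adjusted p 0.0174). Col1a1, Col1a2 and Col3a1 together made up 80.0% ± 2.92 (SD, n = 5) of collagen counts in AD and 74.9% ± 4.57 (SD, n = 7) in AD+OB skin.

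The type V chains nucleate type I fibrils, and none of them was called. Col5a1 stood at 107, 17.2, 23.0, 30.6 and 38.1 CPM in AD skin and ran from 47.9 over 59.7 to 128 CPM in AD+OB skin. As with Col3a1, every AD+OB library was above 4 of the AD libraries and AD library 1 was high, and the log2 fold change was 0.87 ± 0.39 (SE, adjusted p 0.172). Col5a2 stood at 271, 114, 90.5, 123 and 110 CPM in AD skin and ran from 56.1 over 115 to 282 CPM in AD+OB skin. Its groups overlapped on both sides, at a log2 fold change of 0.07 ± 0.35 (SE, adjusted p 0.934) that changed sign under the GC offset. Col5a3 was low, at 3.23 to 22.5 CPM in AD and 8.43 to 32.3 CPM in AD+OB skin, at a log2 fold change of 0.80 (adjusted p 0.263). Col11a1 and Col27a1, fibrillar chains best known from cartilage, were detected at 3.03 to 24.7 CPM and had log2 fold changes of 0.33 and 0.55 (adjusted p 0.728 and 0.412). In all, 0 of 8 tested fibrillar genes were called in edgeR, against 9.2% of all genes, 1 was at an unadjusted p under 0.05, 7 had a positive and 1 a negative fold change, against 51.7% of all genes positive, and Col3a1, Col5a1 and Col5a2 were chosen for naming after their values were seen.

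**Figure D3:**
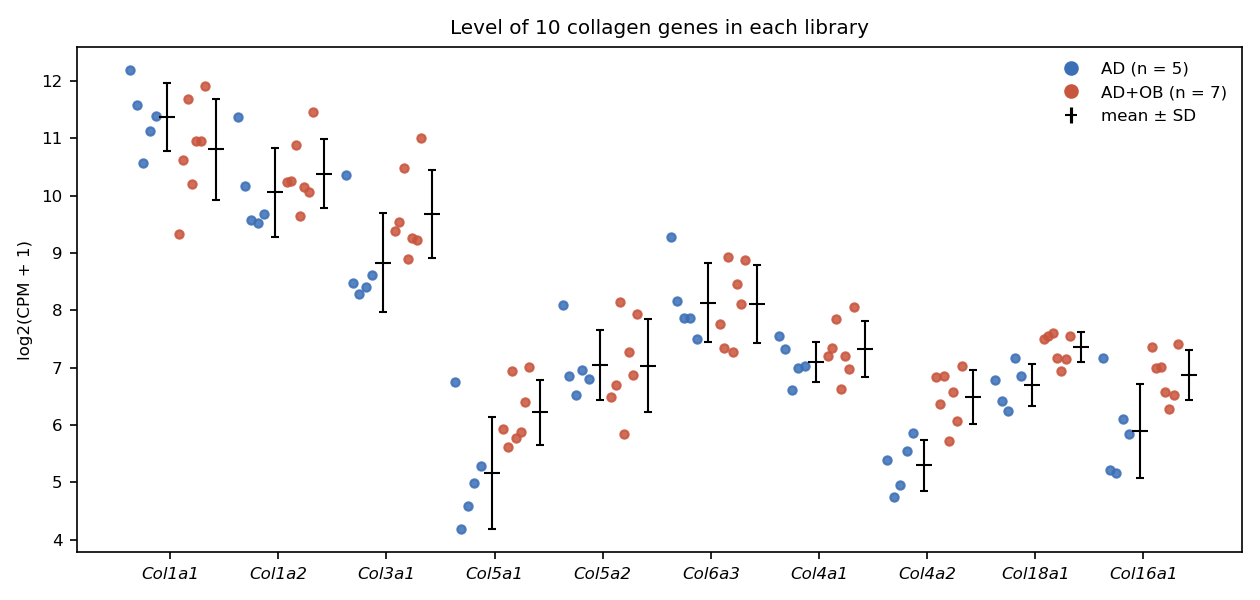
Each point is log2(CPM + 1) of a collagen gene in 1 library (AD blue, n = 5; AD+OB red, n = 7), with the mean and SD beside each group. The highest AD point of Col1a1, Col1a2, Col3a1, Col5a1, Col5a2, Col6a3, Col4a1 and Col16a1 is AD library 1, and 6 of 7 AD+OB points of Col4a2 lie above all AD points.

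Ratios of 2 genes within 1 library do not depend on its scaling. They are given as a description without a test, since the pairs were chosen after the counts were seen. The ratio of Col1a1 to Col3a1 counts was 3.56, 8.63, 4.89, 6.61 and 6.83 in AD skin and 0.958 to 3.32 in AD+OB skin, without overlap. Col3a1 over Col1a2 was 0.312 to 0.499 in AD and 0.541 to 0.761 in AD+OB skin, again without overlap. Both type I chains were lower relative to Col3a1 in each AD+OB library than in any AD library, and none of the 3 genes was called alone. The share of all gene pairs whose ratios do not overlap is not given here, so these separations are not read as a result about collagens. The ratio of Col1a1 to Col1a2, whose chains share 1 molecule, was 1.77 to 3.26 in AD and 0.530 to 1.86 in AD+OB skin, with overlap. Col5a1 over Col5a2 was 0.151 to 0.393 in AD and 0.374 to 0.952 in AD+OB skin, with overlap. The type VI ratios, Col6a1 over Col6a2 (0.202 to 0.802 against 0.227 to 0.533) and Col6a3 over Col6a2 (4.67 to 10.6 against 4.57 to 7.91), overlapped over most of their range. Col4a3 over Col4a4 (0.292 to 2.93 against 0.204 to 1.00), Col4a5 over Col4a6 (0.196 to 1.78 against 0.119 to 0.780) and Col18a1 over Col15a1 (2.60 to 6.12 against 4.56 to 6.19) overlapped too and are not drawn. In each of the first 2 of these pairs, 4 AD libraries had a ratio.

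**Figure D4:**
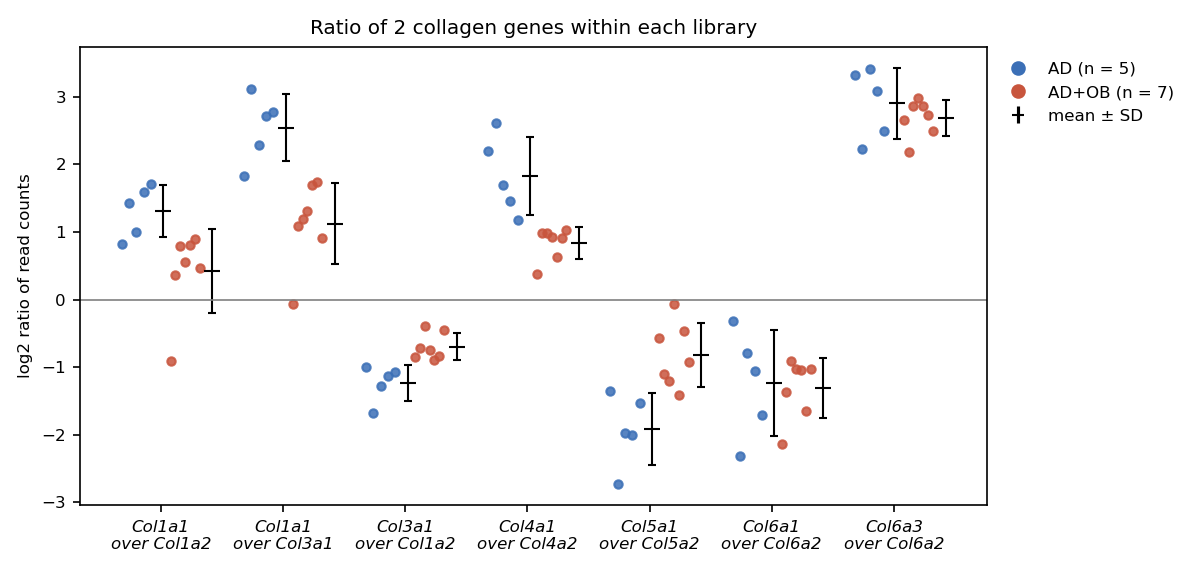
Each point is the log2 ratio of the read counts of 2 collagen genes in 1 library, for 7 pairs, with mean and SD per group (AD blue, n = 5; AD+OB red, n = 7). The groups separate for Col1a1 over Col3a1, Col3a1 over Col1a2 and Col4a1 over Col4a2, and overlap for the other 4 pairs.

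Type IV genes are arranged head to head in pairs, and 1 of the 6 genes (16.7%), Col4a2, was called, against 9.2% of all genes. Col4a1 and Col4a2 lie on chromosome 8 of GRCm38 (GENCODE M21), Col4a1 on the minus strand at chr8:11198423-11312826 and Col4a2 on the plus strand at chr8:11312805-11449287. Their annotated first exons share 22 bases at chr8:11312805-11312826. Col4a4 and Col4a3 start at bases 82586849 and 82586921 of chromosome 1 with 71 bases between them, at chr1:82586850-82586920. Col4a6 and Col4a5 start at bases 141474076 and 141475385 of chromosome X with 1308 bases between them. The 2 short stretches show how close the starts of each pair are and are printed on the plus strand of GRCm38, with the GC box GGGCGG in capitals.
Col4a1 and Col4a2, shared first-exon bases: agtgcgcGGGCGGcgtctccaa
Col4a4 and Col4a3, bases between starts: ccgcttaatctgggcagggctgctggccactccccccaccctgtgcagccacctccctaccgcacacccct

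Col4a2, the α2 chain of the type IV network found in all basement membranes, rose in AD+OB skin. It stood at 40.6, 25.9, 29.9, 45.8 and 56.8 CPM in AD libraries 1 to 5. In AD+OB skin it ran from 51.7 over 94.3 to 130 CPM, a mean of 93.0 ± 28.4 (SD, n = 7) against 39.8 ± 12.4 (SD, n = 5). The groups overlapped only in AD+OB library 4, which lay under the highest AD library. The fold change was 2.34, or 1.22 ± 0.24 (SE) on the log2 scale, with an adjusted p of 0.00833 in the edgeR quasi-likelihood test. The two-sided exact permutation test on log2(CPM + 1) gave p = 0.00379 (n = 5 and 7; smallest possible 0.00126). The call was lost with the replicate numbers as a block (adjusted p 0.0514) and kept in 21 of 22 alternatives.

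Its head-to-head partner Col4a1, the α1 chain, was not called. It stood at 186, 159, 97.2, 126 and 129 CPM in AD skin and ran from 98.1 over 147 to 266 CPM in AD+OB skin. The groups overlapped over most of their range, at a log2 fold change of 0.26 ± 0.22 (SE, adjusted p 0.507) that was -0.02 under the GC offset. The count ratio of Col4a1 to Col4a2 was 4.57, 6.14, 3.25, 2.76 and 2.27 in AD libraries 1 to 5 and 1.30 to 2.05 in AD+OB skin, without overlap. This ratio reuses the Col4a2 counts behind its call and is not separate support for it. The last 1000 bases of Col4a1 overlap the antisense gene Gm15418, and the strand setting of the counting is not given in the sources used here, so Col4a1 counts may hold antisense reads.

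The other type IV chains, which form the network of specialised basement membranes, were low. Col4a4 stood at 0, 2.69, 2.42, 2.65 and 4.43 CPM in AD skin and ran from 3.23 over 6.24 to 11.2 CPM in AD+OB skin. With 5 of 7 AD+OB libraries above all AD libraries, its log2 fold change was 1.34 ± 0.70 (SE, adjusted p 0.249), while the exact permutation test gave an unadjusted p of 0.00631. Col4a3, read out from the facing strand, stood at 0.0907, 3.21, 0.706, 7.78 and 3.07 CPM in AD and at 1.52 to 4.61 CPM in AD+OB skin. Its AD values spanned the whole AD+OB range, at a log2 fold change of 0.05 ± 0.75 (SE) that turned negative under the GC offset, and its 3′ end overlaps C430014B12Rik on the opposite strand. Col4a6 was at 0 to 10.9 CPM in AD and 6.18 to 14.0 CPM in AD+OB skin (log2 fold change 0.79 ± 0.67, adjusted p 0.505). Col4a5 was at 1.68 to 3.44 CPM in AD and 1.48 to 6.24 CPM in AD+OB skin (0.22 ± 0.55, adjusted p 0.846). All 6 type IV genes were tested, and the 5 beside Col4a2 were not called.

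Some markers of other cells that lay down type IV collagen were called in the same comparison, in which 9.2% of all genes were called and 4.43% were called higher. Of 10 endothelial markers 8 were on the higher side and 2 were called, Cdh5 and Kdr, both higher, and the list summed to 68.4 to 138 CPM in AD and 78.6 to 171 CPM in AD+OB skin. Of 10 pericyte and smooth muscle markers 6 were on the higher and 4 on the lower side and 1 was called, Cspg4, higher, with sums of 109 to 175 and 141 to 249 CPM. Of 9 tested keratinocyte markers 6 were on the lower side (median log2 fold change -0.24) and 2 were called, Krt5 and Krt14, both higher, with sums of 5796 to 8963 and 7916 to 11811 CPM. The groups overlapped in all 3 sums, no defining marker of these lists was at 0 in all libraries, and their part in the type IV result was not tested.

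Col18a1, a heparan sulfate-bearing multiplexin of basement membranes whose C-terminal fragment is endostatin, also rose. It lies on the minus strand of chromosome 10 at chr10:77052178-77166548. RefSeq (GRCm38.p6) gives 2 start sites for it, and the window from 250 to 21 bases before the upstream start, chr10:77166551-77166780, is shown on the gene's strand. It holds 3 GC boxes (GGGCGG or its reverse CCGCCC) and 1 CCAAT box (CCAAT or ATTGG), in capitals, and it is shown because only 6.72% of 32851 such windows hold at least 3 GC boxes. The window of the other start, chr10:77113726-77113955, held 0 of these GC, CCAAT or TATAAA strings.
Col18a1, 230 bases before its upstream start: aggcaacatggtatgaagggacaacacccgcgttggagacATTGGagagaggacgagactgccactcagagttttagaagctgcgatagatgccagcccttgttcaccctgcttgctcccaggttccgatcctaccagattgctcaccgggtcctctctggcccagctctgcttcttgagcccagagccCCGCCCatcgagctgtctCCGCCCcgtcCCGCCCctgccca

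Over all 37 windows of the 34 collagen genes with a RefSeq entry, 20 (54.1%) held a GC box, against 29.8% of all windows. CCAAT was in 11 (29.7%) against 32.2%, and TATAAA, searched on both strands as well, in 4 (10.8%) against 11.8%. The only other collagen window with 3 GC boxes was that of Col8a1, which was not called. A match is a string in a window and not a measured site, and 3′ reads do not tell which start a transcript used.

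Col18a1 stood at 109, 84.0, 74.6, 142 and 115 CPM in AD libraries 1 to 5. In AD+OB skin it ran from 122 over 180 to 195 CPM, a mean of 165 ± 28.7 (SD, n = 7) against 105 ± 26.8 (SD, n = 5). AD library 4 reached into the AD+OB range, and 5 of 7 AD+OB libraries were above every AD library. The log2 fold change was 0.65 ± 0.17 (SE, adjusted p 0.0273) and the exact permutation p was 0.00758. The call was lost, with adjusted p of 0.0511 to 0.0684, when AD library 2 or 3 or AD+OB library 1, 2, 3 or 7 was left out, under the GC offset (log2 fold change 0.32, adjusted p 0.177), with quality weights (0.0852) and with the replicate block (0.127). The last 1000 bases of Col18a1 also overlap Slc19a1 on the opposite strand (log2 fold change 0.41, adjusted p 0.354), so reads of the pair may be mixed if strand was ignored. Col15a1, the other multiplexin, stood at 34.4, 21.2, 28.7, 35.1 and 18.8 CPM in AD and at 22.8 to 42.7 CPM in AD+OB skin. Its groups overlapped, at a log2 fold change of 0.24 ± 0.22 (SE, adjusted p 0.550) that turned negative under the GC offset.

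Of 9 FACIT genes 4 were tested, 3 of them were on the higher side at an unadjusted p under 0.05, as were 12.3% of all genes tested, and none was called in edgeR. Col16a1, found near fibrils and the epidermal junction, stood at 142, 36.0, 34.6, 67.7 and 56.3 CPM in AD skin and ran from 76.3 over 126 to 170 CPM in AD+OB skin. All AD+OB libraries were above AD libraries 2 to 5 and 2 were above AD library 1. Its log2 fold change was 0.85 ± 0.31 (SE, adjusted p 0.0980) and its exact permutation p 0.0265, and it was called in DESeq2 (adjusted p 0.0389), in limma-trend (0.0417), with quality weights (0.0410) and without AD library 1 (0.00815), and not called in the other 18 of 22 alternatives, among which the GC offset gave a log2 fold change of 0.49 (0.342). Col14a1, a fibril-bound regulator of fibril diameter, stood at 13.4, 7.24, 2.32, 5.48 and 5.06 CPM in AD skin and at 7.30 to 19.2 CPM in AD+OB skin. Again AD library 1 was the AD library inside the AD+OB range, and the log2 fold change was 0.94 ± 0.40 (SE, adjusted p 0.143). Col12a1, a related fibril-bound collagen, ran from 24.3 to 50.4 CPM in AD and from 25.8 to 84.8 CPM in AD+OB skin (log2 fold change 0.57 ± 0.27, adjusted p 0.193). Col9a3, a cartilage chain, was at 18.8, 4.35, 0, 1.68 and 3.89 CPM in AD and at 1.55 to 5.26 CPM in AD+OB skin. Its log2 fold change of -0.93 ± 0.81 (SE, adjusted p 0.520) became positive without AD library 1 (0.28), and its 3′ end overlaps Tcfl5 on the opposite strand.

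Type VI genes, which make the beaded filaments around dermal cells and fibrils, showed no call. Col6a3, the most abundant of them, stood at 621, 287, 232, 233 and 180 CPM in AD skin and ran from 153 over 276 to 489 CPM in AD+OB skin. The groups overlapped over most of their range and the log2 fold change was -0.04 ± 0.33 (SE, adjusted p 0.960), with a positive sign under library totals (0.02). Col6a1 stood at 49.7, 12.4, 12.7, 13.2 and 9.77 CPM in AD and at 7.77 to 40.8 CPM in AD+OB skin. Col6a2 stood at 61.9, 61.5, 21.9, 27.5 and 32.0 CPM in AD and at 19.4 to 83.0 CPM in AD+OB skin. Their log2 fold changes were 0.07 ± 0.47 and 0.20 ± 0.33 (SE, adjusted p 0.948 and 0.764), and both were negative under the GC offset (-0.24 and -0.12). The other type VI chains were near the detection limit. Col6a5 had 0 to 12 reads in AD and 0 to 26 in AD+OB libraries (log2 fold change 1.76 ± 1.22, adjusted p 0.401). Col6a6 had 10 reads in AD library 5, 0 in the other AD libraries and 2 to 22 in AD+OB libraries. Its log2 fold change was 2.35 ± 1.25 (adjusted p 0.257), and without AD library 5, the 1 AD library with reads, its AD counts were all 0 and it was tested only through its AD+OB counts (adjusted p 0.0272), which is not read as support. Both genes had few reads, and the AD+OB libraries detected more entries in total. The part of that difference in these values was not tested.

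The remaining classes had no call. Col7a1, the anchoring fibril of the epidermal junction, stood at 36.4, 18.0, 46.5, 24.8 and 24.4 CPM in AD and at 22.1 to 50.9 CPM in AD+OB skin (log2 fold change 0.25 ± 0.25, adjusted p 0.572). It was -0.12 under the GC offset. Col8a1 and Col8a2, the short-chain network of vessels, were at 1.33 to 12.3 and 0 to 7.78 CPM in AD and at 1.65 to 9.31 and 0 to 6.04 CPM in AD+OB skin. Their log2 fold changes of 0.30 ± 0.56 and 0.67 ± 1.08 had adjusted p of 0.794 and 0.755. With single libraries left out these fold changes ran from 0.061 to 0.94 and from 0.35 to 1.81. Col23a1, a transmembrane collagen of keratinocytes, stood at 31.5, 25.0, 26.5, 26.7 and 23.2 CPM in AD and ran from 19.3 over 21.1 to 36.4 CPM in AD+OB skin. All AD values were inside the AD+OB range, and its log2 fold change was -0.06 ± 0.21 (adjusted p 0.899). Col13a1, another transmembrane collagen, was at 3.01 to 7.47 CPM in AD and 3.70 to 9.08 CPM in AD+OB skin (0.17 ± 0.43, adjusted p 0.845, negative under the GC offset).

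Of the 43 genes, 13 had too few reads to be tested, with at most 54 reads in any library. They included the cartilage chains Col2a1, Col9a1, Col9a2, Col10a1 and Col11a2, and Col6a4, Col19a1, Col20a1, Col22a1, Col24a1, Col25a1, Col26a1 and Col28a1. In all AD libraries 4 of them had no read, namely Col2a1, Col6a4, Col11a2 and Col28a1. The 3′ end of Col10a1 overlaps Nt5dc1 on the opposite strand. Col26a1, the highest of the unclassed genes, was at 0 to 2.80 CPM in AD and 0 to 1.65 CPM in AD+OB skin. Col28a1 had 0 reads in all 5 AD libraries and 0 to 15 in the AD+OB libraries, with reads in 6 of 7. It was called when no filter on low counts was used (adjusted p 0.0494), which is not read as support because its AD counts were all 0. The AD+OB libraries also detected more entries in total, as given above.

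Collagen chains need enzymes and chaperones for hydroxylation, folding, secretion, trimming and cross-linking, and 32 of 33 such genes listed were tested. Of these, 22 (68.8%, against 51.7% of all genes) had a positive fold change and the median log2 fold change was 0.34, against 0.02 over all genes. Of the 32, 2 (6.25%) were called, both higher, against 9.2% of all genes and 4.43% higher. Ppib (cyclophilin B), the prolyl isomerase of the collagen 3-hydroxylation complex, stood at 169, 96.2, 108, 121 and 154 CPM in AD skin and ran from 188 over 206 to 225 CPM in AD+OB skin. The groups did not overlap, and the log2 fold change was 0.66 ± 0.14 (SE, adjusted p 0.0123; 0.0679 with the replicate block). Plod3, a lysyl hydroxylase and collagen glycosyltransferase, stood at 8.34, 7.04, 6.36, 17.5 and 11.7 CPM in AD skin and ran from 14.7 over 18.8 to 25.5 CPM in AD+OB skin. AD library 4 lay inside the AD+OB range, and the log2 fold change was 0.94 ± 0.29 (SE, adjusted p 0.0476). Its call was lost when any library other than AD library 4 was left out (adjusted p 0.0550 to 0.108), with no filter (0.0606), under the GC offset (0.101), with quality weights (0.165) and with the replicate block (0.106).

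Other genes of the list were not called. The largest positive fold changes were those of Colgalt2, a collagen galactosyltransferase read in 1 of 5 AD libraries and in all AD+OB libraries (log2 fold change 3.42 ± 1.23, adjusted p 0.0909), and of P4ha3, a prolyl 4-hydroxylase subunit (1.68 ± 1.03, adjusted p 0.335). Colgalt2 was called in limma-trend (adjusted p 0.0209) and without AD library 4, the 1 AD library with reads for it (0.0161). Its AD counts were otherwise 0 and it passed the filter through AD+OB, so neither call is read as support. The largest negative ones were those of Adamts3, a procollagen N-proteinase (-2.15 ± 1.10, adjusted p 0.235), and P3h2, a prolyl 3-hydroxylase (-1.43 ± 0.89, adjusted p 0.344). Among genes chosen after their values were seen, the chaperone Serpinh1 (HSP47) had a log2 fold change of 0.11 ± 0.29 and the cross-linking enzyme Lox of -0.51 ± 0.45 (adjusted p 0.847 and 0.527). At an unadjusted p under 0.05 were 8 of the 32 tested genes of the list, 7 higher and 1 lower. Over all genes 12.3% were higher and 12.8% lower at that threshold. Bmp1, the procollagen C-proteinase, was the 1 lower gene (-0.49 ± 0.20, adjusted p 0.140).

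Of 10 collagen receptor genes 9 were tested and 3 were called, all higher, of which Itga10 passed the filter only through AD+OB, against 9.2% of all genes called and 4.43% called higher. Ddr1, a receptor tyrosine kinase of epithelia that binds collagen, stood at 111, 101, 131, 141 and 108 CPM in AD skin and ran from 139 over 179 to 214 CPM in AD+OB skin. AD library 4 lay just above the lowest AD+OB library, and the log2 fold change was 0.56 ± 0.14 (SE, adjusted p 0.0225). The call was lost without AD library 2 (adjusted p 0.0577) or AD+OB library 2 (0.0544) under the GC offset (0.164), with quality weights (0.0699) and with the replicate block (0.0860). Itgb1, the β subunit shared by all collagen-binding integrins and many others, stood at 94.4, 104, 117, 134 and 118 CPM in AD skin and ran from 122 over 157 to 237 CPM in AD+OB skin. In it 5 of 7 AD+OB libraries were above all AD libraries, at a log2 fold change of 0.55 ± 0.16 (SE, adjusted p 0.0446). Its call was lost without AD library 1, 2, 3 or 5 or AD+OB library 1, 2, 3 or 7 (adjusted p 0.0580 to 0.0921), with quality weights (0.181) and with the replicate block (0.127). Itga10, an α subunit of a cartilage collagen receptor, had 0 reads in all AD libraries and 5 to 24 in all AD+OB libraries (adjusted p 0.0151). It passed the filter only through the group where it was high, so its call is not counted as support, and no fold is given for a gene at 0. Without AD+OB library 1, 2, 3, 4 or 6 it was not tested, and with the replicate block its adjusted p was 0.197. Among the others, the largest positive fold change was that of Itga2 (0.67 ± 1.20). Its value ran from 0.33 to 2.13 with single libraries left out and was 3.21 with the replicate block. The largest negative ones were those of Mrc2, the endocytic collagen receptor (-0.72 ± 0.40, adjusted p 0.284), and Lair1, an inhibitory receptor of leukocytes (-0.52 ± 1.13), which was positive without AD library 1 (0.90).

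**Figure D5:**
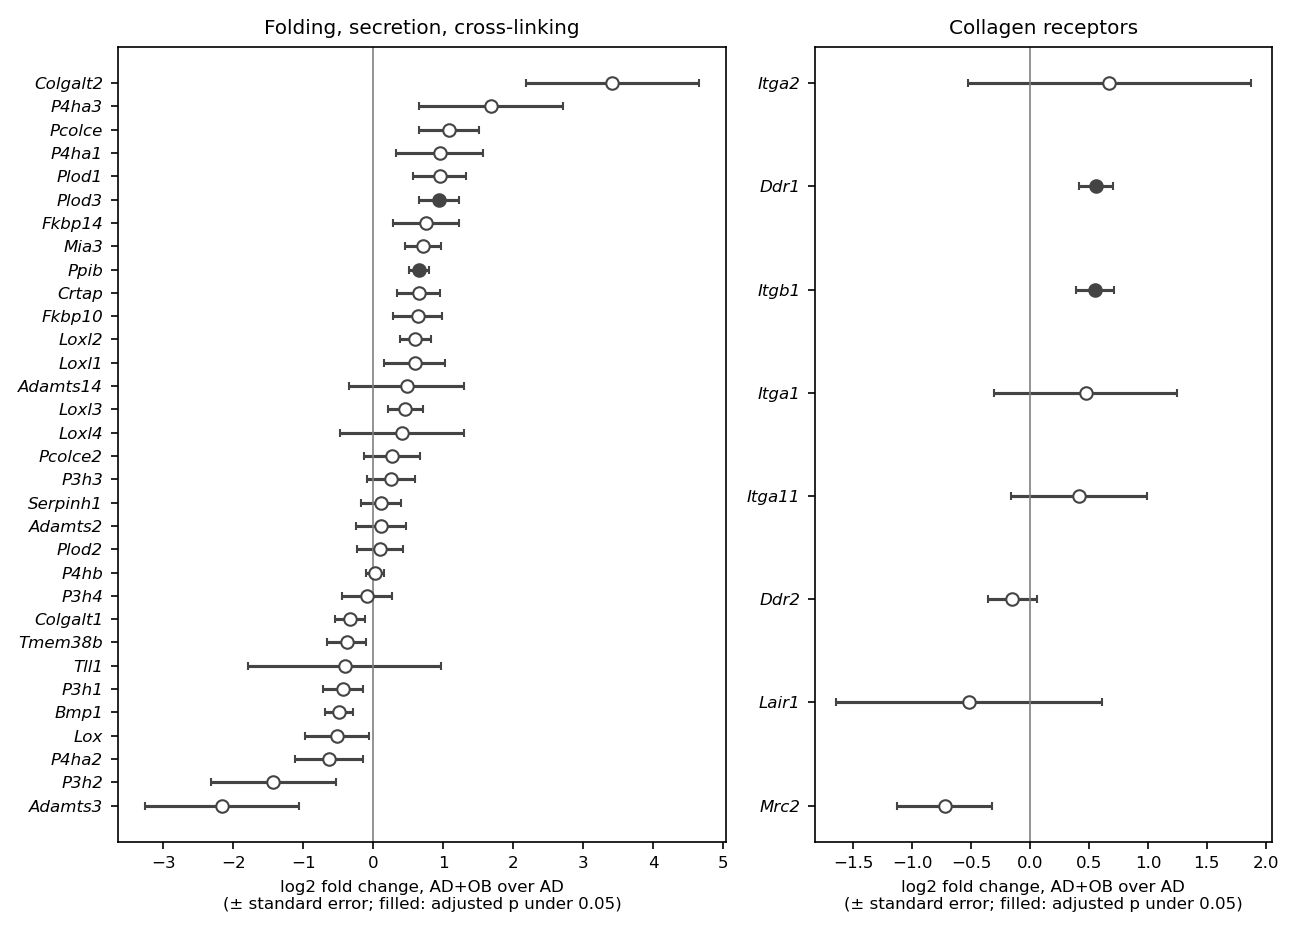
Points are log2 fold changes (AD+OB over AD) with standard errors for the 32 tested genes of collagen folding, secretion and cross-linking (left) and for 8 collagen receptor genes (right), filled where the adjusted p was under 0.05. Itga10 is left out since its AD libraries had no read. Ppib and Plod3 are filled on the left, Ddr1 and Itgb1 on the right.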

How the data were processed

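RNA of 12 mouse skin samples (5 AD, 7 AD+OB) was sequenced from the 3′ ends of transcripts (Lexogen QuantSeq), so a gene's reads do not grow with its length. The deposited values are whole read counts for each gene symbol, with no normalization applied. The submitters' processing notes name mm10, Bowtie2 and bedtools. The strand setting of the counting and the treatment of duplicate reads are not given in the sources used here. The study's methods normalize with edgeR.

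Groups came from the sample titles. The test was edgeR 4.0.16 in R 4.3.3 (TMM, filterByExpr, quasi-likelihood fit, group as the only term, Benjamini–Hochberg over 14163 genes, threshold 0.05). On simulated counts for AD+OB against AD over 14272 genes, 98 of 100 genes changed by a log2 fold of 1 and 100 of 100 changed by 2 were recovered. The simulation gave every gene the same dispersion, changed only genes above a minimum mean count and held no outlying library. Its recovery therefore does not carry over to genes with a wider spread or few reads, and an uncalled collagen is not shown to be unchanged. Levels are CPM with TMM-scaled totals. Single genes were also tested by a two-sided exact permutation test of log2(CPM + 1), with a pseudocount of 1, with 792 possible group assignments of the 12 libraries. A standard error is the log2 fold change divided by the root of F. Alternatives used limma 3.58.1 and DESeq2 1.42.0, and the other steps Python 3.11.15 with pandas 2.3.3, SciPy 1.17.1, NumPy 2.4.6 and matplotlib 3.10.9. Positions and transcript GC content are from GENCODE M21 (GRCm38) and promoter windows from RefSeq (GRCm38.p6), with 9 collagen genes unmatched there.

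The members, classes and lists were chosen with earlier results of these data known. Named are called members, the highest of each class and their chain partners (21 genes, 19 tested), and in the processing and receptor lists the called genes with the 2 largest rises and falls. Others were chosen after their values were seen. Marker lists cover fibroblasts, keratinocytes, hair shaft, skeletal muscle, adipocytes, endothelium, pericytes, cartilage, Schwann cells and macrophages.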

Additional observations from a re-analysis of the deposited data

Results flagged for a closer look

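In 9 of 80 groups of libraries checked, 1 library stood far from the others of its group, by a gap of more than Dixon's 95% limit of the group's range. About 1 in 20 would pass by chance if the groups were separate and normally spread. The groups share the same libraries and some hold values of 0, so the number of flags is not set against that rate. In AD library 1, Col3a1 (10.4), Col5a2 (8.09) and Col6a1 (5.66) were high on the log2(CPM + 1) scale, with the next AD libraries at 8.61, 6.95 and 3.82, and Col4a4 was low (0). The other low values were Col4a5 in AD library 4 (1.42), Col6a5 in AD+OB library 4 (0) and Col8a2 in AD+OB library 5 (0). Col6a6 was high in AD library 5 (0.93), the only AD library with reads for it, a pattern that always passes this limit. The log2 ratio of Col1a1 to Col1a2 counts was low in AD+OB library 1 (-0.91), where the next AD+OB library was at 0.37.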

How the results depend on the processing

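The number of collagens called was 2 with TMM, DESeq2's size factors, library totals, at least 10 counts in every library (of 23 tested) and a robust prior, 3 with no filter, DESeq2 and limma-trend, and 2 with quality weights, which with the GC offset were added after seeing the data. It was 1 under the GC offset and 1 to 7 with single libraries left out. The replicate numbers do not pair the samples (correlations of -0.08 to 0.04, and no number's best partner was its own), and with them as a replicate block 0 collagens, 0 processing and 0 receptor genes were called. The count over all genes then fell from 1303 to 192, and it was 766 with quality weights and 639 to 1461 with single libraries left out. Processing genes called were 3 in DESeq2 and limma-trend, 1 without a filter and with quality weights, and 1 to 3 with single libraries left out. Receptor genes called were 1 with quality weights and 0 to 3 with single libraries left out, 0 without AD+OB library 2, where Itga10 did not pass the filter. These counts include Itga10 where it was tested and passed, although its call is not counted as support. The 1 call with quality weights was Itga10, and without AD library 2 Itga10 passed while Ddr1 and Itgb1 did not. Of the 30 tested collagens 8 had an exact permutation p under 0.05, and the share of all genes passing this test is not given here. Among the 19 tested collagens named by rule the number was 6, 5 with a pseudocount of 0.1 and 4 to 7 with single libraries left out. The 6 included Col6a5 and Col6a6, which had reads in 2 and 1 of the 5 AD libraries. These counts are therefore not read as a result about collagens. The difference in summed share, 0.0397 percentage points, ran from -0.0435 to 0.149 with single libraries left out.

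Several signs turned, always without a call on either side. Under the GC offset Col1a2 was -0.019, Col4a1 -0.020, Col4a3 -0.029, Col6a1 -0.24, Col6a2 -0.12, Col7a1 -0.12 Col5a2 -0.036, Col13a1 -0.084 and Col15a1 -0.073. Col9a3, at -0.93 in edgeR, was 0.20 in limma-trend, 0.80 with quality weights and 0.28 without AD library 1. Under the replicate block Col6a2 was -0.015, Col5a2 -0.17 and Lair1 3.11. Col6a3 was 0.018 under library totals and 0.20 with quality weights. In limma-trend Col5a2 was -0.0087 and Lair1 1.57, and with quality weights Lair1 was 3.76. With single libraries left out Col23a1 ran from -0.17 to 0.013, Col4a3 from -0.26 to 0.79, Col6a1 from -0.18 to 0.79, Col6a2 from -0.00092 to 0.40, Col6a3 from -0.19 to 0.38, Col5a2 from -0.16 to 0.45 and Lair1 from -0.84 to 0.90. Col4a2 passed in 21 of 22 alternatives, Col18a1 in 13 and Ppib in 21 of 22. Depth limits the 13 untested members, the 11 tested ones under a mean of 10 CPM and all genes at 0 reads.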

Other observations

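Relative to the 12 fibroblast markers summed in the same library, Col4a2 was 1.04 higher on the log2 scale in AD+OB skin. Next came Col4a4 (1.02), Col4a6 (0.95), Col5a1 (0.91), Col16a1 (0.83), Col14a1 (0.81), Col3a1 and Col5a3 (0.70 each) and Col8a2 (0.63). Col6a5 and Col6a6 (0.59 each) and Col18a1 (0.51) followed. On the lower side were Col1a1 (-0.72), Col9a3 (-0.31), Col23a1 (-0.25), Col6a3 (-0.18), Col5a2 (-0.16), Col4a5 (-0.05) and Col6a1 (-0.04). The groups overlapped for each of the 30 tested collagens, and these ratios were not tested. Some markers of further cell types were called in the same comparison, in which 4.43% of all genes were called higher and 4.77% lower. Of 10 hair shaft and matrix genes 3 were called higher (Krt31, Krt34, Krt86), of 9 tested adipocyte genes 2 higher (Pnpla2, Lipe) with 4 of 9 on the lower side, and of 10 skeletal muscle genes 1 lower (Acta1), with 9 of 10 on the lower side. None of 10 macrophage or 10 Schwann cell genes was called in edgeR, with 3 and 0 at an unadjusted p under 0.05. Of the macrophage genes 9 were on the higher side, at a median log2 fold change of 0.94, and of the Schwann cell genes 8, at a median of 0.32. Of the 10 cartilage genes other than collagens only Sox9 and Matn4 could be tested, and Sox9, which hair follicles also express, was called higher (log2 fold change 1.18, adjusted p 0.00662). The 10 genes summed to 272 to 445 CPM in AD and 525 to 1339 CPM in AD+OB skin without overlap, as was the case, higher, for 2.89% of all single genes, with Matn1, Matn3, Chad and Lect1 at 0 in every library and Sox9 alone at a mean of 349.8 CPM in AD skin. Their part in the collagen values was not tested.

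Over their whole length, collagen transcripts are rich in G and C, with a median GC content of 55.9% over the 30 tested members against 50.2% over 13625 tested genes, and 15 of the 30 fell among the 2725 genes of highest GC content. The GC offset also used whole transcripts, while the reads came from 3′ ends. At the 3′ end the GC content was 39.2% for Col1a1, 36.4% for Col1a2, 31.4% for Col3a1, 50.2% for Col4a2 and 59.0% for Col18a1. That of all genes is not given here. Of those 2725 genes 187 were called higher and 57 lower, and of the 2725 of lowest GC content 72 higher and 206 lower.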
